A study of Mus musculus with 28 samples.

Results

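Mouse chromosome 7 carries 94 genes whose symbol is Zfp followed by a number and at most 1 letter, among 49550 gene regions read on chromosomes 1 to 19 and X, and their chromatin is described here. The genes were taken by symbol and chromosome from the RefSeq gene table of GRCm38.p6, the assembly of mm10, a rule that reads no measured value, though the set was picked out with earlier results of these data known. Of the 94, 93 were protein coding and 1, Zfp419, was listed as a long non-coding RNA. Another 305 genes with such symbols lay on other chromosomes, and 4068 other genes lay on chromosome 7. The symbol rule takes in genes of different kinds: Zfp36, for example, encodes tristetraprolin, an RNA-binding protein that speeds mRNA decay, and Zfp143 encodes a transcription factor of active promoters.

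Most numbered Zfp genes encode DNA-binding proteins with arrays of C2H2 zinc fingers, and many of these also carry a KRAB domain that recruits Trim28 (KAP1). Trim28 brings in Setdb1, the methyltransferase that places trimethylation on lysine 9 of histone H3 (H3K9me3), a mark of silenced chromatin. The finger array of such genes is encoded mostly by the last exon, and the 3' parts of zinc finger genes are themselves known to carry H3K9me3 in many cell types. Acetylation of the same lysine (H3K9Ac) marks active promoters, and one lysine cannot hold both marks at once.

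The study mapped H3K9me3 and H3K9Ac by chromatin immunoprecipitation and sequencing after micrococcal nuclease digestion, with an interest, by its stated design, in loci where exons join transposable elements. The cells were 2 mouse tumour lines, B16OVA melanoma (B16 below) and MC38 colon adenocarcinoma. Control cells of each line were transduced with the empty pCRISPR-v2-puro construct, and Setdb1 KO cells with the same construct carrying a Setdb1 guide. All 4 groups were grown with puromycin, and 8000000 cells went into each H3K9me3 library and 2000000 into each H3K9Ac library. For each mark a group had replicates 1 to 3, in all 24 libraries with islands (4 input samples were not analysed here). The labels do not say whether the cells were clones or pools, or that the replicates were separate cultures, so p-values measure the spread between these libraries only.

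The data are islands, stretches of 200 bp bins enriched for reads, with the number of reads in each. H3K9me3 libraries held 15200766 to 45419584 reads in islands over 215.379 to 563.393 Mb, and H3K9Ac libraries 28453371 to 78087809 reads over 380.345 to 470.336 Mb. MC38 KO replicate 3 had the smallest H3K9me3 coverage and MC38 KO replicate 1 the largest. In B16, H3K9me3 islands covered more of the genome in the KO libraries (430.873, 367.005 and 406.194 Mb) than in the controls (325.453, 325.519 and 284.916 Mb). H3K9Ac over Setdb1 itself averaged 76.7 ± 5.06 reads per 1000000 (RPM) in B16 control and 78.8 ± 8.98 in B16 KO, 96.2 ± 7.74 in MC38 control and 111 ± 5.25 in MC38 KO (SD, n = 3). Neither mark reports a small edit in a gene, so this does not check the knockout. Melanocyte genes matched the B16 label: all 8 listed had lower H3K9Ac in MC38 by edgeR's adjusted p, their summed level was 983 to 1623 RPM in B16 control against 224 to 302 in MC38 control, and 3, Tyr, Tyrp1 and Dct, had no island in MC38. Of 8 colon epithelium genes, 1 was called higher in MC38, and the sums overlapped (152 to 179 RPM in MC38 control, 135 to 181 in B16 control). Sums over 4 leukocyte genes were 11.5 to 31.5 RPM in B16 control and 22.9 to 32.4 in MC38 control.

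A member's region was its annotated span widened by 2 kb at either end, for both marks. RPM means reads in islands over a region per 1000000 counted reads, after TMM scaling between libraries. A region at 0 had no island called, which is not a measured absence of reads, and no fold is given against such a group. Median gene length was 14.842 kb, from 2.445 kb for Zfp36 to 456.017 kb for Zfp536. The genes lay close together: 57 of the 94 stood in 7 groups of at least 5 with gaps under 100 kb, and 18 stood alone. The regions of 29 members overlapped that of another member and 48 overlapped some other gene, so part of the reads counted for these genes is shared.

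The 5 sequences that follow belong to members with different patterns of the marks, described below. Each is the part of the RefSeq promoter window (GRCm38.p6) that precedes the gene's outer 5' end, written 5' to 3' on the gene's own strand, with CpG pairs in capitals. Zfp36 had the highest H3K9Ac per kb (chr7:28379229-28379478, minus strand, 250 bases, 18 CpG). Zfp382 was the one member called for H3K9me3 in the KO (chr7:30121682-30121832, plus strand, 151 bases, 10 CpG). Zfp418 (chr7:7171103-7171352, plus strand, 250 bases, 2 CpG) carried H3K9Ac in B16 and not in MC38. Zfp941 (chr7:140822202-140822428, minus strand, 227 bases, 2 CpG) had H3K9me3 in B16 and H3K9Ac in MC38. Zfp977 (chr7:42592546-42592795, minus strand, 250 bases, 6 CpG) had H3K9me3 and no H3K9Ac island in all 12 libraries of each mark.
Zfp36: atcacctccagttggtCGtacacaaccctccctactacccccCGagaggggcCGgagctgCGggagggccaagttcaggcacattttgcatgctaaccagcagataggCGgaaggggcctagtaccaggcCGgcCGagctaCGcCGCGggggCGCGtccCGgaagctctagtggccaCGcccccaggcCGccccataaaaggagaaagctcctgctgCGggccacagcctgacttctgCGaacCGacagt
Zfp382: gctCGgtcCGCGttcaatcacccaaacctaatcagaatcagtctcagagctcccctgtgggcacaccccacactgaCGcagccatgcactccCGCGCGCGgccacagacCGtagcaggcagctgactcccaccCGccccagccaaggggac
Zfp418: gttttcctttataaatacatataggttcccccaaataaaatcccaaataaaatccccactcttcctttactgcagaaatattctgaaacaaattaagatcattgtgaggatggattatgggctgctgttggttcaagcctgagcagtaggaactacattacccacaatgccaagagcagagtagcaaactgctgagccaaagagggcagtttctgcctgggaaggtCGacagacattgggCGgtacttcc
Zfp941: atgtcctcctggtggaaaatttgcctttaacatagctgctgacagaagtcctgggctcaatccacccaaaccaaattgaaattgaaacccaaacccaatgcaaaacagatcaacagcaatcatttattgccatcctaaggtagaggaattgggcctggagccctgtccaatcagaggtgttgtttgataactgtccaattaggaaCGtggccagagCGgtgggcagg
Zfp977: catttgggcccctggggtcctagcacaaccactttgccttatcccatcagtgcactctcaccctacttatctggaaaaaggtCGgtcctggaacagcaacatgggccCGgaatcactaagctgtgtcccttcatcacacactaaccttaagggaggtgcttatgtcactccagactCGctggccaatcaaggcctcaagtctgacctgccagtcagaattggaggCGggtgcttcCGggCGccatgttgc

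Promoter windows were matched for 86 members. Over the 250 bases before the RefSeq start, their median was 10.5 CpG, against 6.00 over the promoters of 26793 genes. The GC box GGGCGG or its reverse complement CCGCCC was found in 29 of the 86 (33.7%) and in 33.2% of all promoters of that length. In 71 of the 86, an H3K9Ac island touched these 250 bases in all 12 libraries, and their median was 12 CpG. In 11, Zfp941 and Zfp418 among them, this held in 1 to 11 libraries, and in 4 (Zfp583, Zfp977, Zfp936 and Zfp819) in none, with a median of 6.00 CpG in both sets. An H3K9me3 island touched the window of 13 members in at least 1 library, and that of Zfp936 in all 12. Some windows lie inside the annotated gene span, those of Zfp936, Zfp536 and Zfp541 among them. That of Zfp936 is chr7:43177340-43177589, in a gene annotated at chr7:43114166-43192109 on the plus strand. For such genes the window does not describe the outer 5' end.

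Acetylation was present on nearly every member, and H3K9me3 on part of them. H3K9Ac islands lay on 83 of the 94 regions in all 12 libraries and on 4 (Zfp583, Zfp977, Zfp936 and Zfp819) in none. H3K9me3 islands lay on 13 regions in all 12 libraries, on 39 in some and on 42 in none. In B16 control, 30 members carried islands of both marks in all 3 libraries of each mark, and in MC38 control 17 did. Over all 94 members, the rank correlation between the H3K9me3 and H3K9Ac level per kb was -0.73 in B16 control, -0.67 in B16 KO, -0.54 in MC38 control and -0.58 in MC38 KO. The points share libraries and, where regions overlap, reads, so these values are descriptions.

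**Figure D1:**
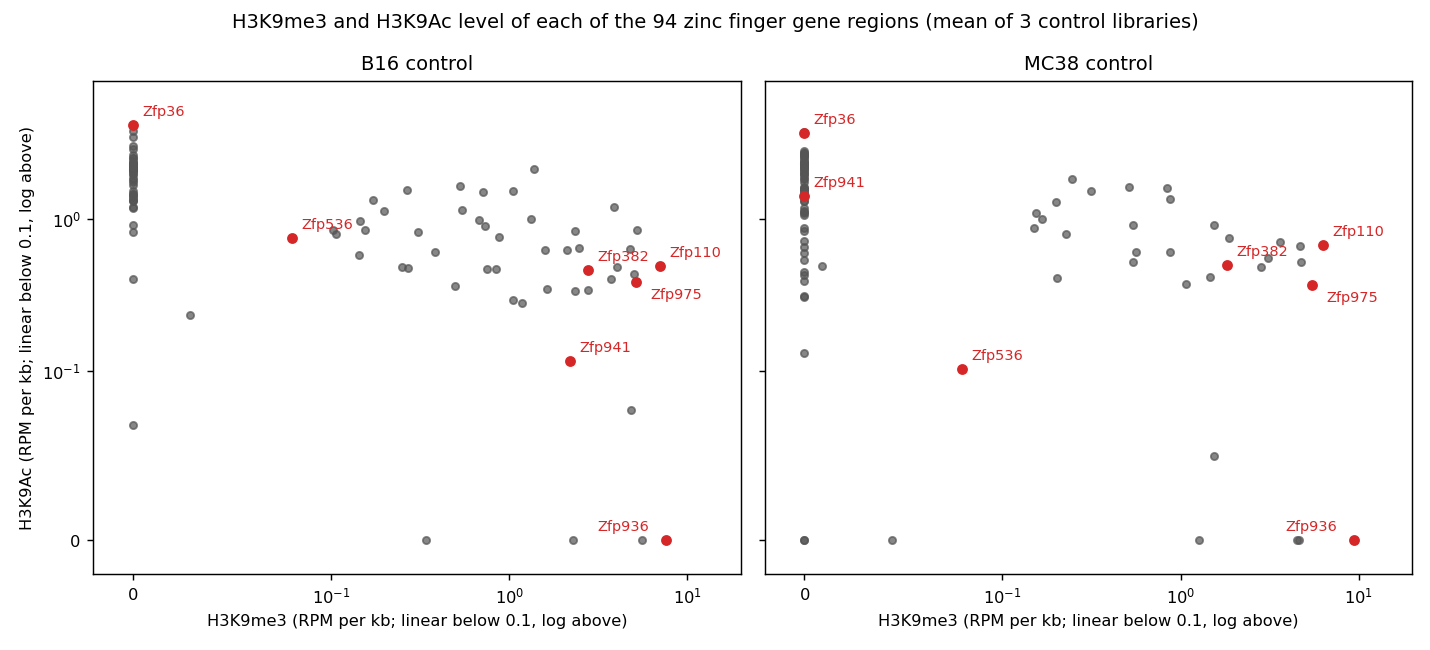
H3K9me3 (x axis) and H3K9Ac (y axis) per kb of region, in RPM per kb, for each of the 94 genes in the control cells of each line (mean of 3 libraries; axes are linear below 0.1 and logarithmic above). Zfp36 has no H3K9me3 island and the highest H3K9Ac, Zfp936 has the highest H3K9me3 and no H3K9Ac island, and Zfp941 moves from the H3K9me3 side in B16 to no H3K9me3 in MC38.

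Per kb, the highest H3K9me3 over the 6 control libraries was on Zfp936, at 8.49 RPM per kb (6.41 to 11.4), followed by Zfp110 at 6.66 (6.01 to 8.23), Zfp975 at 5.32 (4.00 to 6.48) and Zfp977 at 5.02 (2.88 to 8.08). The ranges of neighbours in this order overlap. Zfp936 had 799, 525 and 542 RPM in B16 control, 740, 493 and 490 in B16 KO, 931, 601 and 777 in MC38 control and 871, 688 and 736 in MC38 KO. The 4 groups overlapped, and the KO differences were a log2 change of -0.12 ± 0.34 (SE) in B16 and -0.01 ± 0.34 in MC38, with edgeR's adjusted p = 1.00 in both. Its island core, the longest stretch under islands in all 3 libraries, was chr7:43145401-43173200 (27.8 kb) in B16 control and chr7:43145401-43183000 (37.6 kb) in MC38 control, both inside the annotated gene (chr7:43114166-43192109, plus strand). The lowest levels above 0 were on Zfp141, with 3.12 RPM in 1 B16 control library and none in the other 5 control libraries, and on Zfp719, with 5.61 RPM in 1.

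The highest H3K9Ac per kb in the control libraries was on Zfp36, at 3.88 RPM per kb (3.19 to 5.18). Zfp768 followed with 3.19 (2.04 to 4.19), then Zfp526 with 3.09 (2.54 to 3.79) and Zfp628 with 2.78 (2.32 to 3.46). These ranges also overlap, and none of the 4 had an H3K9me3 island in any library. The lowest above 0 were Zfp976 at 0.0385 RPM per kb and Zfp419 at 0.0340. This order depends on gene length, and Zfp36 (2.445 kb) and Zfp768 (2.52 kb) are short. Undivided by length, Zfp36 had 26.7 ± 6.06 RPM in B16 control, against 152 ± 20.8 on Zfp710 (67.938 kb; SD, n = 3).

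Along the genes the marks had opposite shapes. For the 86 members with a known strand, H3K9Ac islands in B16 control covered 60.4 ± 3.94% of the first 20% of the gene and 30.6 ± 1.94% of the last 20% (SD, n = 3). H3K9me3 islands covered 5.31 ± 0.583% of the first 20% and 22.6 ± 2.60% of the last. MC38 control had the same order of both marks, with 67.4 ± 1.91% and 31.7 ± 6.37% for H3K9Ac and 3.08 ± 0.335% and 14.5 ± 0.738% for H3K9me3.

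**Figure D2:**
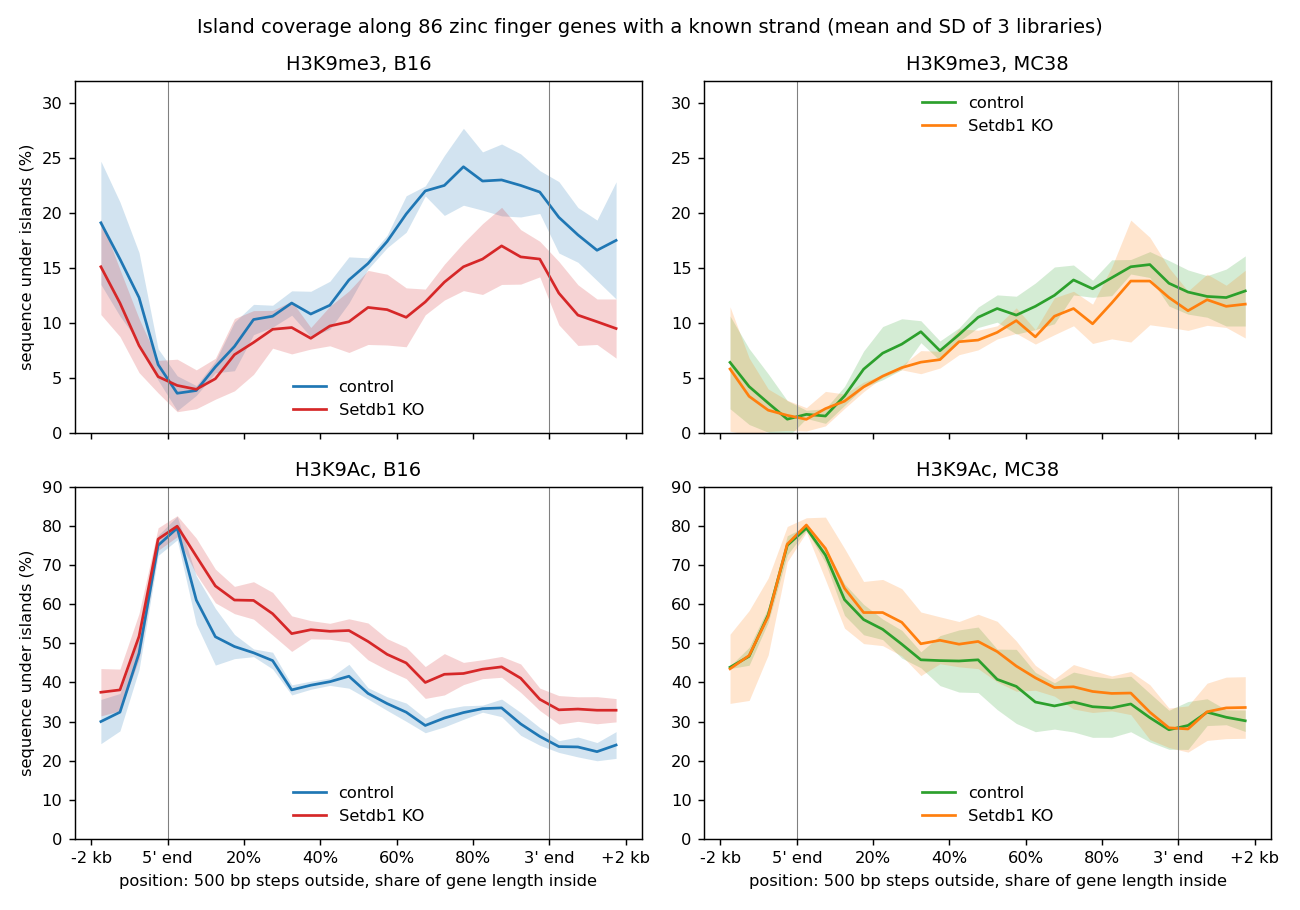
Percent of sequence under H3K9me3 (top) and H3K9Ac (bottom) islands along the 86 genes with a known strand, from 2 kb before the 5' end to 2 kb after the 3' end (500 bp steps outside the gene, 5% of the gene length inside), as mean (line) and SD (band) of 3 libraries. In B16 the KO lies below control for H3K9me3 in the 3' part of the genes and above it for H3K9Ac downstream of the 5' end, while the MC38 bands overlap over most of the gene.

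In B16, H3K9me3 was lower over many of the zinc finger genes in Setdb1 KO cells. In 21 of the 94, all 3 KO libraries lay below all 3 controls, and in 0 above. Among all regions tested, the share below was 9.44% and the share above 5.89%. Of the 94 members 46 passed the filter of a mean of 10 island reads, as did 25675 of all gene regions. Over all genes, tested or not, the share below was 22.3% of the members, 27.9% of the 305 Zfp genes on other chromosomes, 2.58% of the other genes on chromosome 7 and 4.89% of all gene regions. The members thus did not stand apart from Zfp genes elsewhere by this count, and no test was made of it.

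Summed over the 94 members, H3K9me3 was 3456, 2492 and 2409 RPM in B16 control and 2097, 1615 and 1995 in B16 KO, with no overlap between the groups. The members with islands in all 3 libraries numbered 34 in B16 control and 22 in B16 KO. In 6 (Zfp112, Zfp111, Zfp607a, Zfp383, Zfp382 and Zfp764), islands were present in all 3 controls and in no KO library, and in 0 the reverse held. The share of all gene regions in these island states was not counted. Coverage of the whole genome by H3K9me3 islands was larger in the B16 KO libraries, as given above. RPM is relative to all counted island reads, and the part of this wider coverage in the members' lower RPM was not tested. Unscaled island reads in the members were 35448, 19207 and 22315 in B16 control and 22509, 14209 and 22024 in B16 KO, which overlapped. The share of their sequence under H3K9me3 islands was 16.7, 15.6 and 14.3% in control and 11.6, 10.4 and 13.9% in KO, without overlap.

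edgeR's test over all regions called 1 of the 46 members tested in B16, Zfp382, which is a KRAB zinc finger gene (background 0.312% of regions in either direction and 0.148% lower). At an unadjusted p under 0.05 there were 7, all lower in the KO, against 1985 of all 25675 regions in either direction. DESeq2 called 6 of the 46, against 8.28% of all regions. Zfp382 lies at chr7:30121833-30140758 on the plus strand. Its H3K9me3 was 86.6, 52.4 and 52.0 RPM in B16 control, and no KO library had an island there. All 3 control libraries were high and the groups did not overlap (adjusted p = 0.0268). The call was not firm: the adjusted p was 0.0525 to 0.0886 without any 1 of the B16 control libraries, B16 KO replicate 3 or any 1 of the MC38 control libraries, 0.114 with the 6 B16 libraries alone and 0.484 when islands under their library's lower quartile of reads per kb were left out. In all, 8.20 kb of its region lay under H3K9me3 islands in all 3 B16 controls. The longest single stretch, its core, began 10.8 kb from the gene's 5' end and ended 14.6 kb from it (chr7:30132601-30136400).

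Several other members had the same pattern and were not called by edgeR. Zfp607a, in another gene group, had 52.6, 16.3 and 48.7 RPM in B16 control and no island in B16 KO (adjusted p = 0.389 by edgeR, 0.00548 by DESeq2), and no island in any MC38 library. Zfp111 had 45.2, 26 and 18.8 RPM in B16 control and no island in B16 KO (adjusted p = 0.321 by edgeR and 2.16e-05 by DESeq2; 0.0384 by edgeR without MC38 KO replicate 1). In both genes every B16 control library stood above every KO library.

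Zfp383 had 14, 22.6 and 15.3 RPM in B16 control against no island (edgeR adjusted p = 0.514), and Zfp764 had 13, 36.9 and 13.3 against no island (0.510, and 0.00617 by DESeq2). Zfp420 kept islands in every library, at 95.7, 59.9 and 81.5 RPM in control and 31.1, 27.4 and 25.7 in KO, a log2 change of -1.49 ± 0.63 (SE; adjusted p = 0.614). Zfp780b, picked out after its values were seen, had 51.3, 51.6 and 49.9 RPM in control and 2.70, 0 and 3.53 in KO (adjusted p = 0.648). For each of these genes the groups did not overlap, and the size of the difference did not carry it past edgeR's adjusted threshold over 25675 regions.

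**Figure D3:**
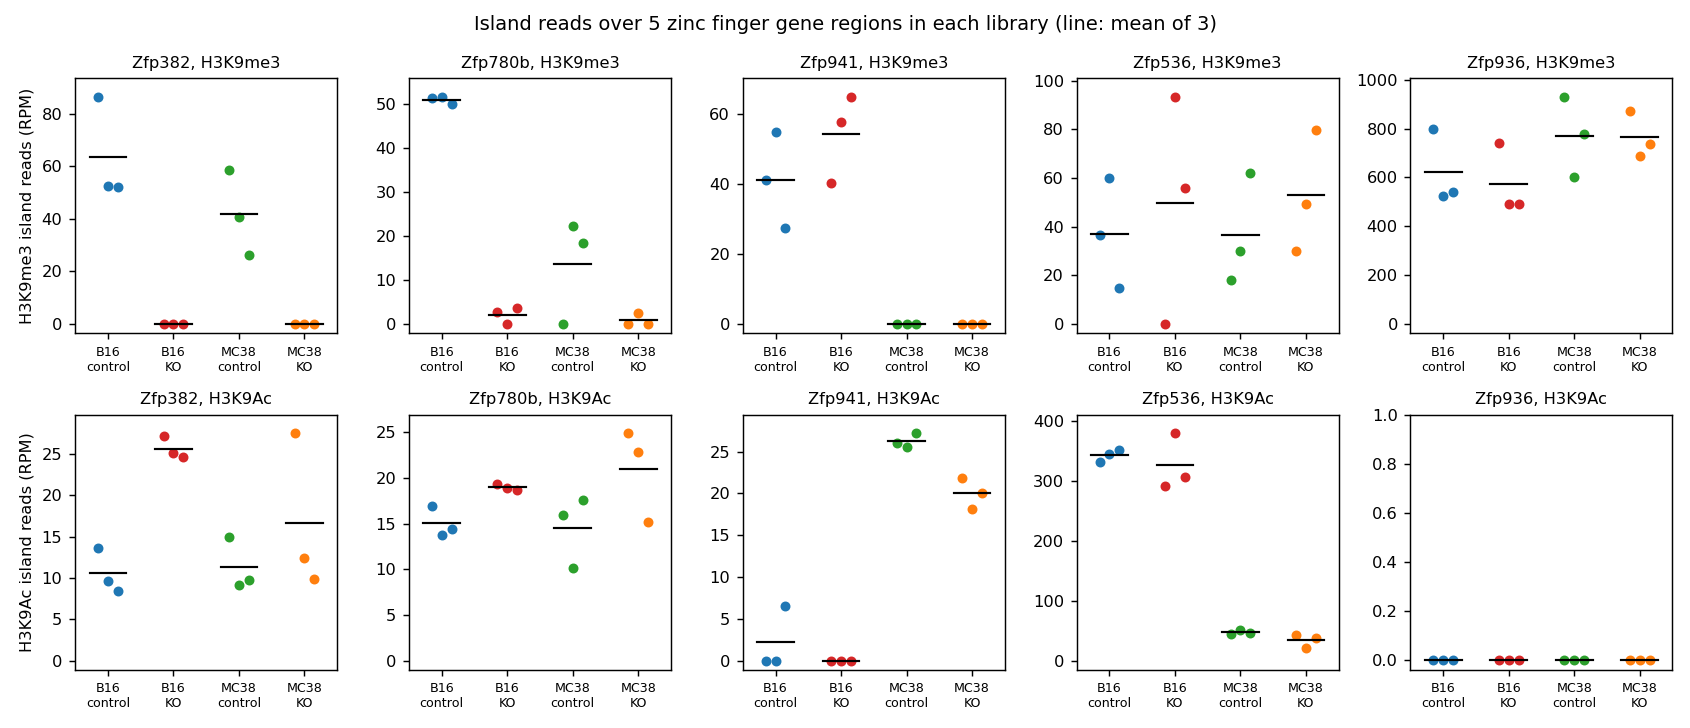
H3K9me3 (top) and H3K9Ac (bottom) island reads, in RPM on linear axes, over 5 gene regions in each library; points are libraries, horizontal lines the mean of 3, and a point at 0 had no island. Zfp382 has no H3K9me3 island in the KO of either line, Zfp941 has H3K9me3 in B16 and H3K9Ac mostly in MC38, Zfp536 has far more H3K9Ac in B16, and Zfp936 has H3K9me3 in every library and H3K9Ac in none.

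The lower H3K9me3 in B16 was spread over several of the gene groups. In the group of 15 from Zfp84 to Zfp146 (chr7:29768552-30169775), which holds Zfp382, the summed level was 336, 229 and 233 RPM in B16 control and 69.3, 68.2 and 69.9 in B16 KO. In the group of 8 from Zfp607b to Zfp850 it was 450, 289 and 318 RPM in control and 163, 112 and 185 in KO. In the group of 10 from Zfp180 to Zfp94 it was 356, 236 and 242 RPM in control and 148, 143 and 191 in KO. The libraries of the genotypes did not overlap in these 3 groups, nor in the 5 genes from Zfp329 to Zfp446 (279, 221 and 211 RPM against 168, 115 and 151). They overlapped in the group from Zfp787 to Zfp28 and in that from Zfp553 to Zfp689, and the group from Zfp628 to Zfp580 had no H3K9me3 island in B16.

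**Figure D4:**
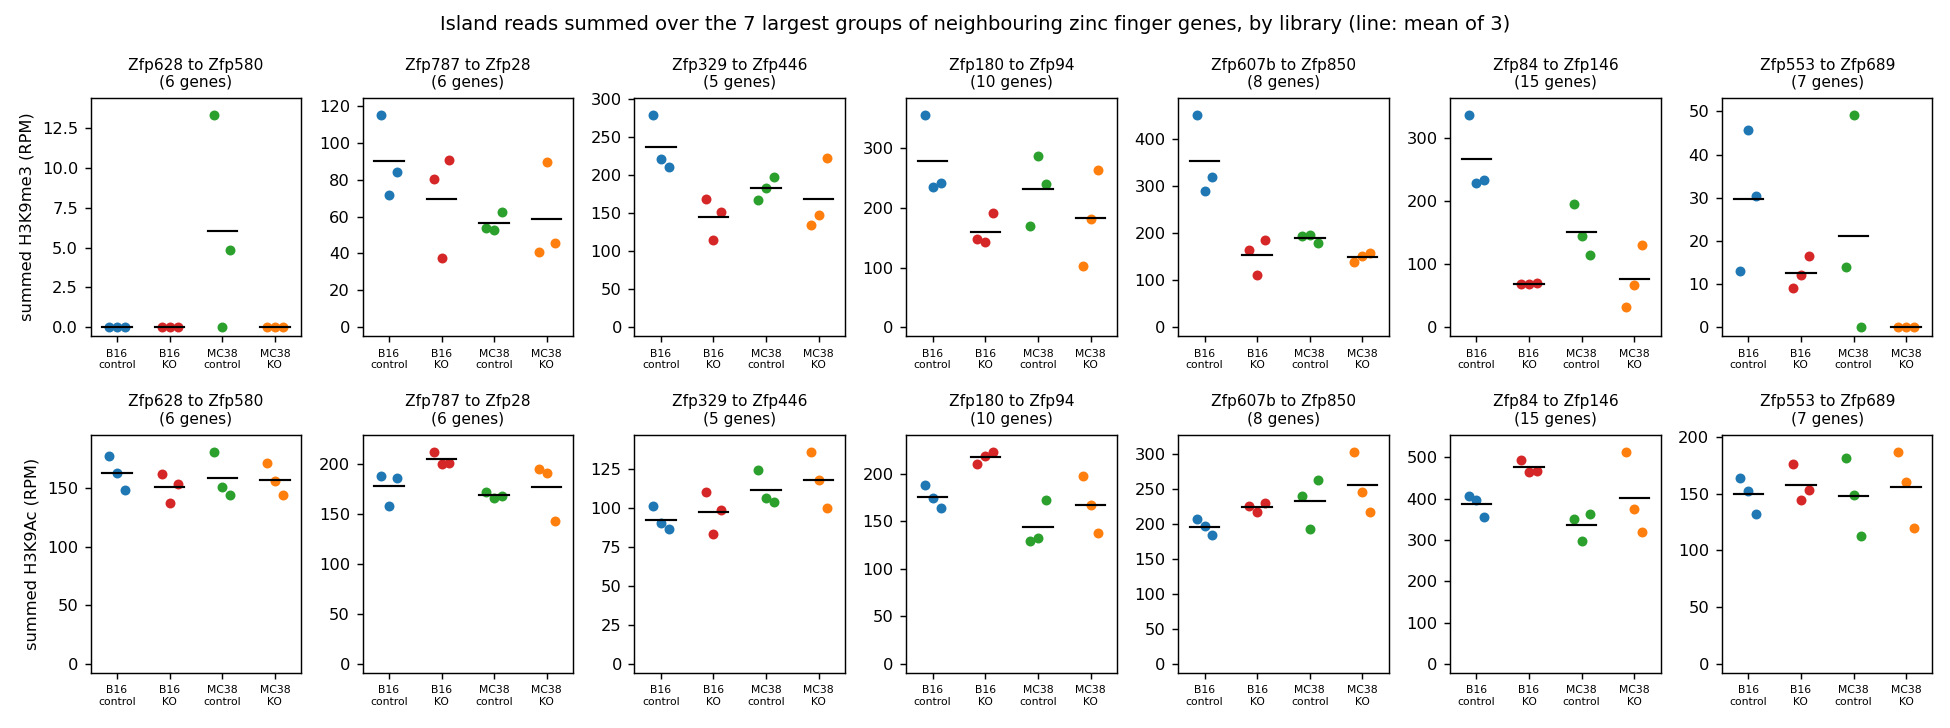
Summed H3K9me3 (top) and H3K9Ac (bottom) island reads in RPM, on linear axes from 0, over the 7 groups of at least 5 neighbouring Zfp genes; points are libraries and horizontal lines the mean of 3. The 15 genes from Zfp84 to Zfp146 lie at 68.2 to 69.9 RPM of H3K9me3 in the B16 KO libraries, under every B16 control library (229 to 336).

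In MC38, H3K9me3 separated the genotypes in a few members. Each KO value was below each control value in 4 (Zfp626, Zfp850, Zfp382 and Zfp975), and above in 0, with 1.73% of regions below and 0.596% above. The count below was 8, with 1 above, without MC38 KO replicate 3, the library of smallest coverage, and was 4 without MC38 KO replicate 1. With 1 library fewer, any region reaches non-overlap more easily, and no share of all regions is given for these counts. The sum over the 94 members was 2402, 2085 and 2245 RPM in control and 1940, 1899 and 2007 in KO, again without overlap. The share of their sequence under H3K9me3 islands did overlap, at 10.1, 11.6 and 10.7% in control and 9.13, 10.7 and 8.42% in KO. The median log2 change of the members tested was -0.05, with 25 of 46 below 0 (54.3%). The change was below 0 in 40.2% of all regions, with a median of 0.00. Among Zfp genes tested on other chromosomes it was below 0 in 68.8%, with a median of -0.21. No member was called by edgeR (0 of 46 tested, background 0.136%), and 5 had an unadjusted p under 0.05 (1759 of all 25675 regions). DESeq2 called 7 (15.2%), against 7.17% of all regions.

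Zfp382 came closest in MC38. Its H3K9me3 was 58.8, 40.7 and 26.2 RPM in control, no KO library had an island, and the adjusted p was 0.0581 by edgeR (0.0320 to 0.0375 without any 1 MC38 KO library). Its MC38 control core lay 17 to 19.6 kb from the 5' end, at chr7:30138801-30141400, and did not overlap the B16 control core. Each core is only the longest part of the sequence under islands in all 3 controls (3.40 kb in MC38, 8.20 kb in B16). The overlap of the whole sequence between the lines was not counted. Zfp382 was thus the one member with H3K9me3 in all 6 control libraries and in none of the 6 KO libraries.

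Zfp764 had 14.1, 36.4 and 0 RPM in MC38 control and no island in KO (adjusted p = 0.567 by edgeR, 0.0106 by DESeq2). Zfp626 had 4.88, 13.8 and 2.17 RPM in MC38 control and no island in KO (adjusted p = 0.755 by edgeR, 1.42e-06 by DESeq2). Zfp688 had an island in 1 MC38 control library (12.7 RPM) and in no KO library (adjusted p = 0.707 by edgeR, 4.61e-10 by DESeq2). Zfp418 and Zfp60 went the other way through 1 or 2 libraries. Zfp418 had no island in MC38 control and 12.5, 25.7 and 0 RPM in KO (adjusted p = 0.567 by edgeR, 0.0166 by DESeq2). Zfp60 had no island in control and 0, 19.9 and 0 RPM in KO (0.710 by edgeR, 1.49e-11 by DESeq2). DESeq2 thus called each of these 5 genes, all without an island in 1 whole genotype, and the calls of Zfp688 and Zfp60 rested on 1 library each. Of these 5, Zfp626 alone had an island in every MC38 control library.

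Whether the KO effect on H3K9me3 differed between the lines was tested as an interaction. edgeR called 0 of the 46 members tested (background 0.397%), and 3 had an unadjusted p under 0.05 (2409 of all 25675 regions). DESeq2 called 3 (6.52%), against 11.2% of all regions. The 21 members below in B16 and the 4 below in MC38 shared 3, Zfp382, Zfp850 and Zfp975. Zfp850 had 204, 141 and 136 RPM in B16 control and 115, 94 and 114 in B16 KO, and 168, 155 and 159 in MC38 control and 139, 125 and 145 in MC38 KO.

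H3K9Ac over part of the members was higher in B16 KO cells. All 3 KO libraries lay above all 3 controls in 14 of the 94 and below in 2, Zfp526 and Zfp646 (background 4.73% above and 3.35% below). The share of all genes above was 14.9% of the members, 8.52% of Zfp genes on other chromosomes, 2.51% of the other genes on chromosome 7 and 3.19% of all gene regions. The filter was passed by 90 of the 94. Same-numbered H3K9Ac libraries deviated together, and within these pairs the KO was above control in all 3 for 36 of the 90 and below in all 3 for 8 (background 15.3% above and 16.4% below). Counted only within 2 kb of the 5' end, 3 lay above and 5 below, and with total island reads as the scaling 8 lay above and 2 below. The counts above and below were 25 and 2 without B16 control replicate 1, 25 and 3 without B16 control replicate 2 and 24 and 5 without B16 KO replicate 2. With 1 library fewer, any region reaches non-overlap more easily. No share of all regions is given for these alternative counts, so they are not read as results about the members.

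The sum of H3K9Ac over the members was 2710, 2579 and 2470 RPM in B16 control and 2810, 2747 and 2782 in B16 KO. The share of their sequence under H3K9Ac islands was 36.8, 35.5 and 36.9% in control and 46.6, 43.6 and 44.9% in KO. Neither overlapped between the genotypes. H3K9Ac islands also covered more of the whole genome in B16 KO (448.334, 442.909 and 436.758 Mb against 380.345, 382.254 and 423.370), and its part in the members' difference was not tested. By position, coverage of the first 20% of the genes was 60.4 ± 3.94% in control and 69.5 ± 3.68% in KO, of the middle 20% 38.4 ± 1.31% and 51.0 ± 3.33%, and of the last 20% 30.6 ± 1.94% and 41.0 ± 2.89% (SD, n = 3).

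No member was called for H3K9Ac in B16 (0 of 90 tested, background 0.0839%) by edgeR. At an unadjusted p under 0.05 there were 5, against 1376 of all 33359 regions. DESeq2 called 2 (2.22%), Zfp74 and Zfp382, against 3.07% of all regions. Zfp382 had 13.6, 9.65 and 8.47 RPM in B16 control and 27.2, 25.1 and 24.6 in B16 KO, a log2 change of 1.28 ± 0.38 (SE; edgeR adjusted p = 0.926). The KO libraries were all higher than the controls, and the difference lay away from the promoter: within 2 kb of the 5' end the log2 change was -0.24. The longest stretch under H3K9Ac islands in all 3 libraries was chr7:30121001-30122800, over the 5' end, in B16 control, and chr7:30129201-30133800, 7.37 to 12 kb into the gene, in B16 KO. The latter overlaps the longest stretch under H3K9me3 islands in all 3 B16 controls.

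Zfp74, a neighbour of Zfp382 with no H3K9me3 island in any library, had 26, 32.1 and 33.7 RPM of H3K9Ac in B16 control and 44.4, 45.2 and 44.7 in KO (log2 change 0.55 ± 0.14, SE; edgeR adjusted p = 0.709). Zfp82, also without H3K9me3, had 28.8, 24.1 and 30.2 RPM in control and 40.8, 34.7 and 38.6 in KO (adjusted p = 1.00). In neither did the groups overlap, and within 2 kb of the 5' end the log2 changes were -0.29 for Zfp74 and -0.01 for Zfp82. Higher H3K9Ac in the KO was thus also measured where no H3K9me3 had been called.

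Zfp28 had 13.5, 10.9 and 6.91 RPM in B16 control and 21.3, 20.2 and 13.3 in KO, which overlapped by 1 library, while the KO was above control in all 3 pairs (edgeR adjusted p = 1.00, and 0.925 with the pairs as a block). Zfp526 had 45.6, 39.0 and 38.9 RPM in control and 31.0, 34.1 and 37.5 in KO, lower in each KO library than in every control (adjusted p = 1.00). Zfp941 had an H3K9Ac island in B16 in 1 control library only, at 6.53 RPM. Of the 21 members with lower H3K9me3 in B16 KO, 5 (Zfp112, Zfp382, Zfp780b, Zfp790 and Zfp850) were among the 14 with higher H3K9Ac, which is 23.8% of the former and 35.7% of the latter.

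Sequence without H3K9me3 in B16 Setdb1 KO held some H3K9Ac that the controls lacked. In 200 bp bins, 31.4 kb of the members' regions lay under H3K9me3 islands in all 3 B16 controls and in no KO library. Of these bins 1.27, 0 and 0% lay under H3K9Ac islands in B16 control replicates 1 to 3 and 8.92, 10.2 and 8.28% in B16 KO, with no overlap. The 159 kb under H3K9me3 in all 6 libraries had at most 0.883% under H3K9Ac in any library. The 1845 kb with H3K9me3 in none of the 6 had 46.7, 45.1 and 46.8% under H3K9Ac in control and 57.8, 54.1 and 56.4% in KO, a difference of like size.

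The bins that lost H3K9me3 belonged to 14 members, and H3K9Ac reached them in a KO library in 5 of these (Zfp110, Zfp180, Zfp607b, Zfp420 and Zfp382). Zfp382 held 8.20 kb of them, with 1.2, 1.40 and 1.60 kb under H3K9Ac in the KO libraries and none in the controls. In Zfp780b, 3.40 kb lost H3K9me3 with no H3K9Ac there in any B16 library. In the rest of chromosomes 1 to 19 and X, bins that lost H3K9me3 in B16 were under H3K9Ac at 4.77, 8.14 and 5.01% in control and 10.8, 14.8 and 10.1% in KO, so the pattern was not confined to these genes. In MC38 only 8.20 kb of member sequence had H3K9me3 in all controls and in no KO library, and it was under H3K9Ac at 0, 0 and 9.76% in control and 9.76, 0 and 0% in KO. In the rest of those chromosomes such bins of MC38 were under H3K9Ac at 2.20, 1.54 and 4.69% in control and 2.52, 2.32 and 3.68% in KO. The genotypes thus overlapped in MC38, unlike in B16, and this difference between the lines was not tested.

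In MC38, the fitted H3K9Ac change with the KO was small and mostly above 0. It was below 0 in 25 of the 90 members tested, with a median log2 change of 0.08 (46.2% and 0.00 over all regions), and in B16 in 24 of the 90, with a median of 0.11 (49.1% and 0.00). Within same-numbered pairs of MC38, the KO was above control in all 3 for 14 members and below in all 3 for 8 (background 9.26% above and 9.81% below). In 5 members the 3 KO values were below the 3 control values (Zfp628, Zfp784, Zfp551, Zfp536 and Zfp941), and in 0 above, with 1.87% of regions below and 1.92% above. The count without overlap changed on leaving out single libraries: 20 lay above and 6 below without MC38 KO replicate 3, 8 above and 8 below without MC38 control replicate 1, and 9 above and 6 below without MC38 control replicate 3. Without MC38 control replicate 2 the counts were 0 and 9, and without MC38 KO replicate 2 they were 4 and 5. Counted without the flanks, 5 lay above and 3 below. With 1 library fewer, any region reaches non-overlap more easily. Shares of all regions are not given for these alternative counts, so they are not read as results about the members. The summed H3K9Ac was 2391, 2143 and 2331 RPM in control and 2755, 2347 and 2107 in KO, which overlapped.

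edgeR called 0 of the 90 members tested for H3K9Ac in MC38 (background 0.126%), and 0 for the interaction of line and genotype (background 0.174%). At an unadjusted p under 0.05 there were 1 and 2, against 1043 and 1426 of all 33359 regions. DESeq2 called 0 in both, against 2.62% and 4.17% of all regions. Zfp628 had 34.9, 27.9 and 25.2 RPM in MC38 control and 20.9, 22.3 and 20.4 in KO, a log2 change of -0.47 ± 0.16 (SE; adjusted p = 1.00). Zfp536 had 44.5, 51.5 and 46.1 RPM in control and 42.3, 21.1 and 38.5 in KO. For both the groups did not overlap.

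Zfp780b had 15.9, 10.2 and 17.6 RPM in MC38 control and 24.9, 22.8 and 15.2 in KO, and Zfp27 had 13.3, 9.11 and 14.2 RPM and 28.7, 16.4 and 14. Zfp109 had 0.557, 1.18 and 2.53 RPM in control and 5.80, 0.915 and 5.27 in KO. Zfp790 had 28.8, 23.7 and 28.1 RPM in control and 44.5, 28 and 30.8 in KO. In these 4 the genotypes overlapped, and edgeR's adjusted p was 1.00 for each. Zfp790 alone of the 4 was higher in the KO in all 3 pairs (adjusted p = 1.00 with the block).

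Between the control lines, H3K9me3 lay on fewer members in MC38. MC38 control had islands in all 3 libraries on 21 members against 34 in B16 control, and 7 members (Zfp60, Zfp607a, Zfp974, Zfp383, Zfp715, Zfp473 and Zfp941) had islands in all B16 controls and no MC38 control, with 0 the other way. The share of all gene regions in these states was not counted, so this is not shown to be particular to the members. Over all regions tested, edgeR called 1107 lower and 725 higher in MC38 control. edgeR called 1 of the 46 tested, Zfp941, lower in MC38 (background 7.14%, and 4.31% lower). Zfp941, at chr7:140807453-140822201 on the minus strand, had 41.1, 55.0 and 27.4 RPM of H3K9me3 in B16 control, 40.5, 57.9 and 65.1 in B16 KO, and no island in any of the 6 MC38 libraries (adjusted p = 0.00628 for the control lines). Zfp607a also had H3K9me3 in B16 controls only, with an adjusted p of 0.0740 (0.0459 without MC38 KO replicate 3).

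H3K9Ac on Zfp941 was the mirror of this. It was 0, 0 and 6.53 RPM in B16 control and no island in B16 KO, and 26.1, 25.6 and 27.2 RPM in MC38 control and 21.8, 18.1 and 20.1 in MC38 KO. Every MC38 library was above every B16 library, though edgeR's adjusted p between the control lines was 0.25. The B16 control core of H3K9me3, chr7:140810801-140813000, lay 9.20 to 11.4 kb from the 5' end and overlapped the H3K9Ac core of MC38 control, which lay 7.0 to 10.8 kb from it (chr7:140811401-140815200). At the promoter shown above, H3K9Ac islands were present in the 6 MC38 libraries and in none of B16, and H3K9me3 islands in the 3 B16 KO libraries and no other.

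For H3K9Ac, 10 of the 90 members tested were called between the control lines, against 19.4% of all regions: 4 higher in MC38 (background 9.81%) and 6 lower (9.60%). With the replicate number as a block 14 (15.6%) were called, 4 higher and 10 lower, against 25.7% of all regions. Zfp536, a transcriptional repressor gene known from neural differentiation, had the smallest adjusted p, with 332, 344 and 351 RPM in B16 control and 44.5, 51.5 and 46.1 in MC38 control, a log2 change of -2.85 ± 0.23 (SE; edgeR adjusted p = 9.23e-05). The lines did not come near each other. Zfp536 is by far the longest member, and its H3K9Ac in all 3 B16 controls spread over 76.4 kb against 14 kb in MC38 control. Zfp418 had 6.49, 7.98 and 8.52 RPM in B16 control and no island in any MC38 library (adjusted p = 6.69e-04).

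**Figure D5:**
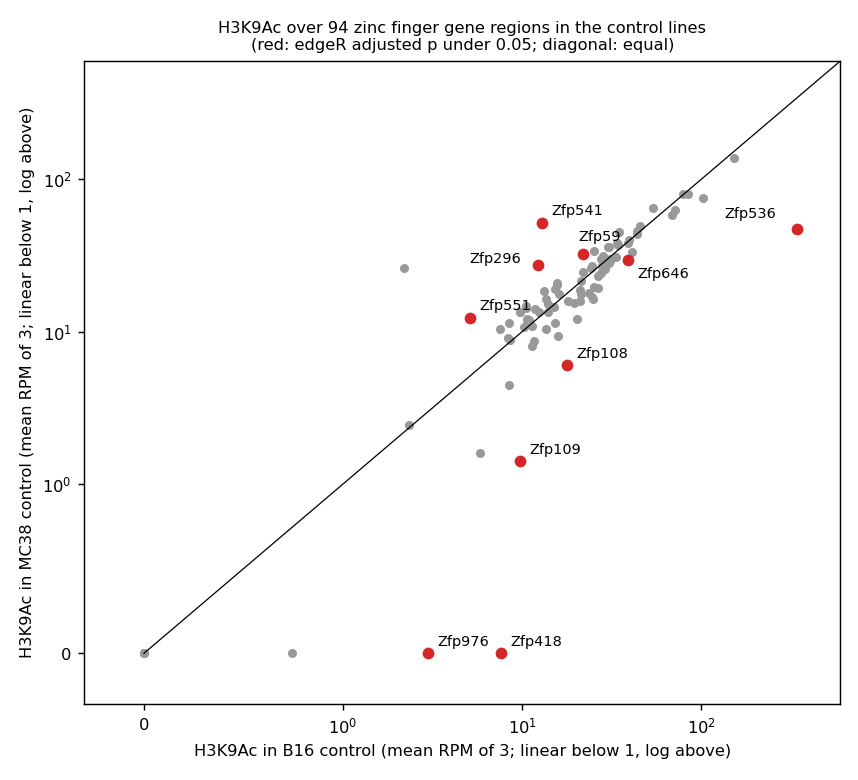
Mean H3K9Ac (RPM, n = 3) of each of the 94 gene regions in B16 control (x axis) and MC38 control (y axis), both linear below 1 and logarithmic above, with the 10 called genes in red and the diagonal marking equal levels. Zfp536 lies far under the diagonal at a high level, and Zfp418 and Zfp976 have no island in MC38 control.

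Of the other 4 lower in MC38, Zfp976 had 4.96, 2.17 and 1.82 RPM in B16 control and no island in MC38 (edgeR adjusted p = 0.00439). Zfp108 had 17.8, 16.2 and 19.8 RPM against 4.67, 8.65 and 4.88 (0.0158), and its neighbour Zfp109 had 10.9, 11.5 and 6.88 against 0.557, 1.18 and 2.53 (0.0237). Zfp646 had 41.8, 36.4 and 39.2 RPM in B16 control and 32.7, 26 and 29.4 in MC38 control, a log2 change of -0.41 ± 0.10 (SE; adjusted p = 0.0169). All 4 were without overlap, and the calls of Zfp108, Zfp109 and Zfp646 were each lost on leaving out 1 of several control libraries (adjusted p up to 0.0787). Zfp646 was not lower at its 5' end, where the log2 change was 0.04.

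Among the 4 higher in MC38, Zfp59 had 22.6, 22.5 and 20.9 RPM in B16 control and 30.7, 28.7 and 37.7 in MC38 control (log2 change 0.56 ± 0.11, SE; edgeR adjusted p = 0.00710). Zfp551 had 6.09, 4.76 and 4.56 RPM against 10.7, 10.1 and 16.3 (adjusted p = 0.0161; 0.0697 without MC38 control replicate 3). Zfp296, known from pluripotent cells, had 13.6, 7.49 and 15.7 RPM against 28.6, 24.9 and 28.9 (0.0294; 0.0521 to 0.0761 without any 1 of B16 control replicates 1 and 2 and the MC38 controls). The lines did not overlap in these 3.

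Zfp541, a gene of meiotic germ cells, had 7.56, 15.5 and 15.8 RPM of H3K9Ac in B16 control and 57.6, 23.2 and 75.4 in MC38 control (log2 change 2.01 ± 0.62, SE; edgeR adjusted p = 0.0475). The call was lost with the replicate number as a block, at a log2 change of 1.80 and an adjusted p of 0.0668, and on leaving out any of 9 single libraries (0.0547 to 0.143). Its H3K9me3 was 60.1, 83.6 and 128 RPM in B16 control and 28.4, 44.7 and 27.4 in MC38 control, also without overlap. The number of calls was 6 without B16 control replicate 1 or without MC38 control replicate 1.

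Genes of the Setdb1 pathway were read beside the members. Of 27 listed (Setdb1, Trim28, Atf7ip, the HP1 genes, the HUSH complex and other H3K9 and DNA methylation factors), 7 had enough H3K9me3 to be tested, and 0 were called in either line's KO or between the lines by edgeR. For H3K9Ac all 27 were tested, 0 were called in either KO, and between the control lines 4 were higher and 3 lower in MC38. Summed H3K9me3 over the 27 was 254 to 345 RPM in B16 control and 122 to 147 in B16 KO, without overlap, and 183 to 228 in MC38 control and 74.8 to 148 in MC38 KO. The sums come from few of the genes: 15 of the 27 had no H3K9me3 island in B16 control and 23 none in MC38 control. The largest B16 difference was on Atf7ip (mean 102 RPM in control, 16.5 in KO), while Setdb1 had 3.26 and 4.03 and Trim28 had no island. Summed H3K9Ac over the 27 was 2100 to 2424 RPM in B16 control and 2306 to 2551 in B16 KO, which overlapped.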

How the data were processed

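H3K9me3 and H3K9Ac chromatin immunoprecipitation was measured in 24 libraries, 3 per group of line and genotype. Per the submitters' processing notes, reads were handled with cutadapt, Bowtie2 2.1.0, SAMtools 0.1.8, SICER 1.1 and deepTools 3.1.1 on mm10; how islands were filtered beyond what the deposited files hold, and which input served as background, is not given in the sources used here. The deposited values are read counts per island, made by the authors for each library separately and not scaled between libraries. From these, island reads were apportioned by overlap to gene regions (RefSeq, GRCm38.p6; start to end plus 2 kb on both sides), rounded, and tested by edgeR 4.0.16, with its quasi-likelihood test on TMM-scaled counts and a trended dispersion, in 1 fit per mark over 12 libraries and all regions with a mean of at least 10 reads. A region was called at an adjusted p (Benjamini-Hochberg, over all regions) under 0.05. Compared were the genotypes within each line, the interaction of line and genotype, and the control cells of MC38 with those of B16.

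Alternatives were DESeq2 1.42.0, limma 3.58.1 on log2 RPM plus 0.5, other scalings, filters, islands and regions, a replicate block, and leaving out each library. For H3K9Ac, same-numbered libraries deviated together over 20434 regions (correlations of 0.431, 0.622 and 0.610 in B16 and 0.316, 0.601 and 0.460 in MC38), so the numbers were taken to pair the samples; this comes from the data, not the labels. The edgeR step was run on simulated data for the B16 H3K9me3 comparison as a check that it finds seeded changes. That check does not show how often it would find changes in the members, many of which lacked H3K9me3 islands in some libraries. Members not called are therefore not shown to be unchanged.

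The members and lists were chosen with earlier results of these data known. Members were named with values where called, where among the 6 of smallest p in a KO contrast or the 2 of smallest p between the lines, or where among the 4 highest or 2 lowest levels per kb. The analysis of 200 bp bins, the cores, the promoter windows and the counts within pairs was added after the data were seen. Protein features were not analysed here. Summed levels count shared reads of overlapping regions more than once. Region levels are limited by depth: an island needs enough reads to be called, so shallow libraries can lack islands.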

Additional observations from a re-analysis of the deposited data

How the results depend on the processing

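Calls of single members depended on the tool more than on the scaling. With DESeq2 the members called for H3K9me3 were 6 in B16 (edgeR 1) and 7 in MC38 (2 higher, 5 lower, edgeR 0). They were 3 for the difference of the KO effects (edgeR 0) and 8 between the control lines (edgeR 1). For H3K9Ac they were 2 in B16 (edgeR 0) and 19 between the lines (edgeR 10). Of all regions, DESeq2 called 8.28%, 7.17%, 11.2% and 27.5% in these H3K9me3 comparisons, in the same order. For H3K9Ac it called 3.07% in B16 and 32.3% between the lines. The members' share was above that of all regions for H3K9me3 in B16 and in MC38, and below it in the others. The H3K9me3 call in B16 was also lost (0 called) with limma, which takes regions with islands in all 6 libraries of the line and so leaves out Zfp382, with the 6 libraries of the line alone, with the replicate block and with stricter islands, and 1 member was called in MC38 with a mean of 50 reads as the filter. H3K9Ac calls between the lines fell to 6 within 2 kb of the 5' end. Leaving out 1 library gave 0 to 2 H3K9me3 calls in B16 and in MC38, 0 to 1 for their difference and 1 to 2 between the lines, and for H3K9Ac 0 to 0 in B16, 0 to 1 in MC38 and for the difference, and 6 to 11 between the lines.

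The 21 members without overlap for H3K9me3 in B16 stayed within 1.5 times under every alternative run (20 to 26 on leaving out 1 library). The 4 in MC38 became 2 with DESeq2 size factors, with total island reads, with a mean of 50 reads and with stricter islands, and 3 to 9 on leaving out 1 library. For H3K9Ac the 16 in B16 became 10 with total island reads and 8 within 2 kb of the 5' end (15 to 29 on leaving out 1 library), and the 5 in MC38 became 8 without flanks (5 to 26). Counts with 1 library left out are not on a par with the full counts, since non-overlap is then easier to reach in any region. Within 2 kb of the 5' end the log2 change turned for Zfp74 (-0.29), Zfp382 (-0.24) and Zfp82 (-0.01) in B16, for Zfp780b in MC38 (-0.44) and for Zfp646 between the lines (0.04). The cause of each was not tested.

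With the replicate number as a block, H3K9me3 gave 0 calls in B16 and 0 between the lines, where Zfp941 had an adjusted p of 0.0688. H3K9me3 libraries of the same number did not all deviate together over 2777 regions. The correlations were 0.454, 0.339 and 0.042 in B16 and 0.472, 0.434 and -0.406 in MC38. Whether the numbers pair the libraries of this mark is thus not settled. For H3K9Ac the block took the Zfp541 call, as given above, gave 0 members called in either KO and 14 between the lines (4 higher and 10 lower, against 4 and 6 without it), and moved the calls over all regions from 28 to 17 in B16 and from 42 to 25 in MC38. Of the log2 changes of named members under the alternatives, 704 kept their direction and side of the threshold, 47 lost the call, 19 gained one and 5 turned.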
